A study of Mus musculus with 8 samples.

Results

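Transcription factors of the Sox, Gata, Fox, Lhx and Tbx families were followed across 4 sorted keratinocyte fractions and 2 genotypes of mouse back skin. Members were all genes whose platform symbol is Sox, Gata, Lhx or Tbx followed by digits alone, or Fox followed by 1 letter and digits, a rule that reads the symbol alone. The array held 88 of them among 19938 genes with a probe set of their own, made up of 43 Fox, 19 Sox, 12 Tbx, 8 Lhx and 6 Gata genes.

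The 8 groups, of 1 Affymetrix array each, were K14Snail CD34+, wild type CD34+, K14Snail CD34-, wild type CD34-, K14Snail Mts24+, wild type Mts24+, K14Snail Mts24- and wild type Mts24- keratinocytes. All came from CD1 mice aged 8 weeks, and each array held a pool of both sexes, of 11 mice for CD34 and 9 mice for Mts24. K14Snail mice express the zinc finger repressor Snail from the keratin 14 promoter, which is active in the basal layer of the epidermis and the outer root sheath, so every K14Snail fraction came from skin that carried the transgene in those layers. Trypsin released the cells, magnetic beads then took out those that bound an antibody to CD34 (a bulge antigen) or Mts24 (an upper follicle antigen), and each negative fraction served as the control of its positive fraction.

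The families are defined by their DNA-binding domains: the HMG box of Sox proteins, the zinc fingers of Gata proteins, the forkhead domain of Fox proteins, the homeodomain that Lhx proteins carry next to LIM domains, and the T-box of Tbx proteins. In skin, Sox9, Lhx2, Tbx1, Foxc1 and Foxp1 are known from work in mice on the stem cells of the follicle bulge. Gata6 is known from the upper follicle and sebaceous duct, Gata3 from the inner root sheath, the epidermis and T cells, and Foxn1 from keratinocytes that leave the cell cycle.

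Values are log2 levels, and levels of different genes are not compared because each has its own probes. Snai1, which encodes Snail, lay between 10.84 and 11.04 on the 4 K14Snail arrays and between 7.86 and 8.16 on the 4 wild type arrays. Cd34 stood at 13.29 in K14Snail and 13.57 in wild type CD34+ cells, against 6.27 in K14Snail and 6.12 in wild type CD34- cells. It stood at 11.56 in K14Snail and 12.12 in wild type Mts24+ cells, against 10.51 in K14Snail and 10.03 in wild type Mts24- cells, so all 4 Mts24 arrays lay far above the CD34- arrays. Plet1, whose product carries the Mts24 antigen, stood at 12.64 in K14Snail and 12.88 in wild type Mts24+ cells, against 9.16 in K14Snail and 9.91 in wild type Mts24- cells. Krt14, the basal keratinocyte keratin, lay between 13.28 and 13.79 on all arrays.

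Tests covered genes that reached 7.70, the median of all genes, on 2 or more of the 8 arrays. Of the 88 members, 40 passed this filter (45.5%), against 53.8% of all genes. They were 21 Fox, 12 Sox, 3 Lhx, 2 Gata and 2 Tbx genes. Of the other 48, Foxb2 and Foxl2 reached the level on 1 array and 46 on none. Foxc2, Foxd2, Lhx6, Sox10 and Sox14 passed on exactly 2 arrays. Foxc2 passed through both CD34+ arrays and Sox10 through both Mts24- arrays, so their differences between fractions were partly set by the filter.

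Promoter letters are shown for 6 members picked by hand. They are Lhx2, Foxc1 and Foxp1, higher in both positive fractions, and Sox6 and Foxn1, lower in both. The last is Sox15, whose genotype difference had the smallest adjusted p among the members. Other members that the results turn on, such as Sox9, Tbx1, Gata6, Sox7 and Gata3, are not shown. A stretch was placed to hold an E-box where its window had one in reach, so these 6 give no share of members with an E-box. RefSeq windows of build GRCm38.p6, from 250 bases before to 50 bases after an annotated start, were found for 60 of the 88 members. Each stretch printed here is 90 bases long, on the strand of the gene, at chr2:38339221-38339310 (Lhx2, plus strand), chr13:31806586-31806675 (Foxc1, plus strand), chr6:99028384-99028473 (Foxp1, minus strand), chr7:116031020-116031109 (Sox6, minus strand), chr11:78386579-78386668 (Foxn1, minus strand) and chr11:69654977-69655066 (Sox15, plus strand). Capitals mark the E-box bound by Snail, CAGGTG or its other strand CACCTG, and in Foxn1 also TAATTA, a homeodomain motif.
Lhx2: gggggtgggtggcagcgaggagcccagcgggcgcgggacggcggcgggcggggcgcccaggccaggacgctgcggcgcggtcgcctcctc
Foxc1: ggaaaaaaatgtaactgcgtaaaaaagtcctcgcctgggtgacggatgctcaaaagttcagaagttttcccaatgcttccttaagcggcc
Foxp1: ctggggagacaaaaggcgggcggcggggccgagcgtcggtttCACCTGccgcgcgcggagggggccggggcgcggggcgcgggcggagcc
Sox6: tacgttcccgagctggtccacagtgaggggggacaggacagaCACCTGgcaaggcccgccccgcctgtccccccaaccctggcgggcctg
Foxn1: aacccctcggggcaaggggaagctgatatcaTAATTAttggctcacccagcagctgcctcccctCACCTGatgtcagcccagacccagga
Sox15: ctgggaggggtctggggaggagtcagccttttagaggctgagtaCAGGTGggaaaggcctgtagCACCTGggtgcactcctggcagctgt

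Positions are counted from the annotated start, with no position 0. The E-boxes of Sox15 began at -16 and at 5, that of Foxn1 at 5, that of Foxp1 at -133 and that of Sox6 at -20. Foxp1 has 3 annotated windows and Sox6 has 6, and the one with an E-box is shown. Over all member windows, 15 of 78 held the E-box (19.2%), against 20.2% of 32851 windows of all genes. TAATTA, which reads the same on both strands, stood in 5.13% of member windows and 5.29% of all windows. The Sox motif ACAATG or CATTGT stood in 8.97% of member windows and 12.6% of all, the GATA motif AGATAA or TTATCT in 7.69% and 11.2%, and the forkhead motif TGTTTAC or GTAAACA in 2.56% and 3.65%. No motif was therefore more common in the members' windows than in all windows, and a match describes letters, not binding.

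Known regulators of bulge stem cells stood high in CD34+ and in Mts24+ cells of both genotypes. Between CD34+ and CD34- cells, 9 of the 40 tested members were higher (22.5%) and 10 were lower (25%), against 13.4% higher and 13.4% lower among all 10720 genes tested. Between Mts24+ and Mts24- cells, 10 were higher (25%) and 5 lower (12.5%), against 12.8% higher and 13.5% lower among all genes. The counts include Foxc2 for CD34 and Sox10 for Mts24, whose differences were partly set by the filter. Calls are limma tests at an adjusted p of 0.05 over all genes tested, and errors are its moderated standard errors (SE). Each marker difference rests on 2 pairs of arrays, 1 per genotype. Its SE came from the fit to all 8 arrays, including those of the other marker. With 1 array per group, that error reflects how far the genotype difference varied between fractions. The p-values therefore do not measure the spread between replicate arrays of a group. Fewer cells of a type and less RNA per cell cannot be told apart in such bulk samples. The median difference was -0.02 over the 40 members and -0.03 over all genes for CD34, and 0.03 over the members and 0.02 over all genes for Mts24. The members thus had no common direction. Of the calls, 11 of 19 for CD34 and 5 of 15 for Mts24 were kept in each of the 8 fits that left out 1 array. The 15 Mts24 calls became 7 without the K14Snail Mts24- array, 8 without the K14Snail Mts24+ array and 9 without the wild type Mts24+ or the wild type Mts24- array. For each marker, leaving out either array of a fraction of the other marker gave the same fit, so the 8 fits were not all separate. The median size of a difference was 0.35 for CD34 and 0.29 for Mts24 over the members, against 0.21 and 0.22 over all genes.

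**Figure D1:**
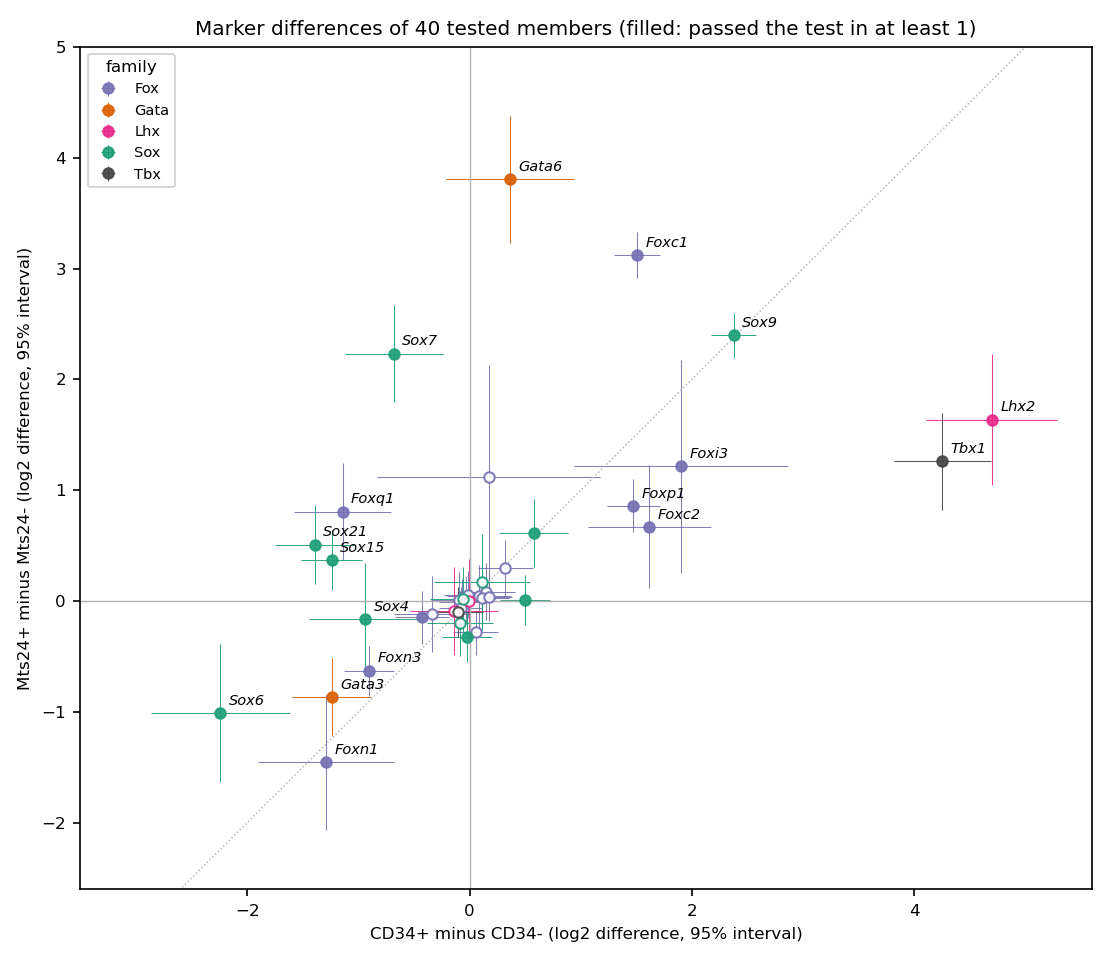
Difference between CD34+ and CD34- cells (horizontal, log2) and between Mts24+ and Mts24- cells (vertical, log2) for each of the 40 tested members, with 95% intervals. Filled points passed the test in at least 1 comparison, and the dotted line marks equal differences. Lhx2 and Tbx1 lie far below the line, Sox9 on it, and Gata6, Sox7 and Foxc1 above it.

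Of the members, 6 were higher in both positive fractions: Sox9, Foxc1, Foxp1, Lhx2, Tbx1 and Sox12. Sox9 specifies the outer root sheath and maintains bulge stem cells. It stood at 12.68 in K14Snail and 12.78 in wild type CD34+ cells, against 10.38 in K14Snail and 10.34 in wild type CD34- cells. In Mts24+ cells it stood at 12.20 in K14Snail and 12.23 in wild type, against 9.82 in K14Snail and 9.81 in wild type Mts24- cells. All 4 positive arrays lay above all 4 negative arrays, and genotypes were nearly level within each fraction. The difference was 2.38 ± 0.08 for CD34 (5.19-fold, adjusted p = 0.000157) and 2.40 ± 0.08 for Mts24 (5.27-fold, adjusted p = 0.000437).

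Lhx2, which maintains follicle stem cells in mice, and Tbx1, which supports their self-renewal in mice, had their high levels in CD34+ cells. Lhx2 stood at 12.44 in K14Snail and 12.79 in wild type CD34+ cells, against 7.78 in K14Snail and 8.05 in wild type CD34- cells. For Mts24+ cells the levels were 10.81 in K14Snail and 11.42 in wild type, against 9.70 in K14Snail and 9.26 in wild type Mts24- cells. The CD34+ arrays were the highest and the CD34- arrays the lowest of the 8, with the Mts24 fractions between them in order. The difference for Mts24 was 1.64 ± 0.24 (3.11-fold, adjusted p = 0.00787), a call that was lost without the wild type Mts24+ array.

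Tbx1 stood at 11.89 in K14Snail and 12.46 in wild type CD34+ cells, against 7.92 in K14Snail and 7.92 in wild type CD34- cells. Its Mts24+ levels were 10.09 in K14Snail and 10.54 in wild type, against 9.07 in K14Snail and 9.04 in wild type Mts24- cells. The order of the fractions was the same as for Lhx2, and none of the 4 fractions overlapped another. Tbx1 was 4.25 ± 0.18 higher in CD34+ cells (19.1-fold, adjusted p = 0.000204) and 1.26 ± 0.18 higher in Mts24+ cells (2.39-fold, adjusted p = 0.00704). The Mts24 call was lost without the wild type Mts24+ or the wild type Mts24- array. The CD34 difference exceeded the Mts24 difference by 2.996 ± 0.25 for Tbx1 (adjusted p = 0.00738) and by 3.06 ± 0.34 for Lhx2 (adjusted p = 0.0109).

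Foxc1 and Foxp1 are forkhead factors that help to keep bulge stem cells quiescent in mice. Foxc1 stood at 10.23 in K14Snail and 10.24 in wild type CD34+ cells, against 8.73 in K14Snail and 8.72 in wild type CD34- cells. The Mts24+ cells had 10.41 in K14Snail and 10.43 in wild type, against 7.22 in K14Snail and 7.37 in wild type Mts24- cells. The 4 positive arrays thus lay close together, and only the Mts24- arrays fell under the filter level. The Mts24 difference, 3.12 ± 0.08 (adjusted p = 0.000227), was the larger, and the CD34 difference was 1.51 ± 0.08 (adjusted p = 0.000313). The CD34 difference minus the Mts24 difference was -1.62 ± 0.12 (adjusted p = 0.00489).

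Foxp1 stood at 11.02 in K14Snail and 11.33 in wild type CD34+ cells, against 9.68 in K14Snail and 9.73 in wild type CD34- cells. Levels in Mts24+ cells were 10.40 in K14Snail and 10.62 in wild type, against 9.61 in K14Snail and 9.70 in wild type Mts24- cells. The groups did not overlap in either comparison, with differences of 1.47 ± 0.10 for CD34 (adjusted p = 0.000487) and 0.86 ± 0.10 for Mts24 (adjusted p = 0.00386). Sox12, a SoxC factor, differed by less, 0.58 ± 0.12 for CD34 and 0.62 ± 0.12 for Mts24 (adjusted p = 0.0212 and 0.0199), with 8.50 in K14Snail and 8.43 in wild type CD34+ cells, against 7.69 in K14Snail and 8.09 in wild type CD34- cells. Its CD34 call was lost without either K14Snail CD34 array, and its Mts24 call without any 1 of the 4 Mts24 arrays.

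**Figure D2:**
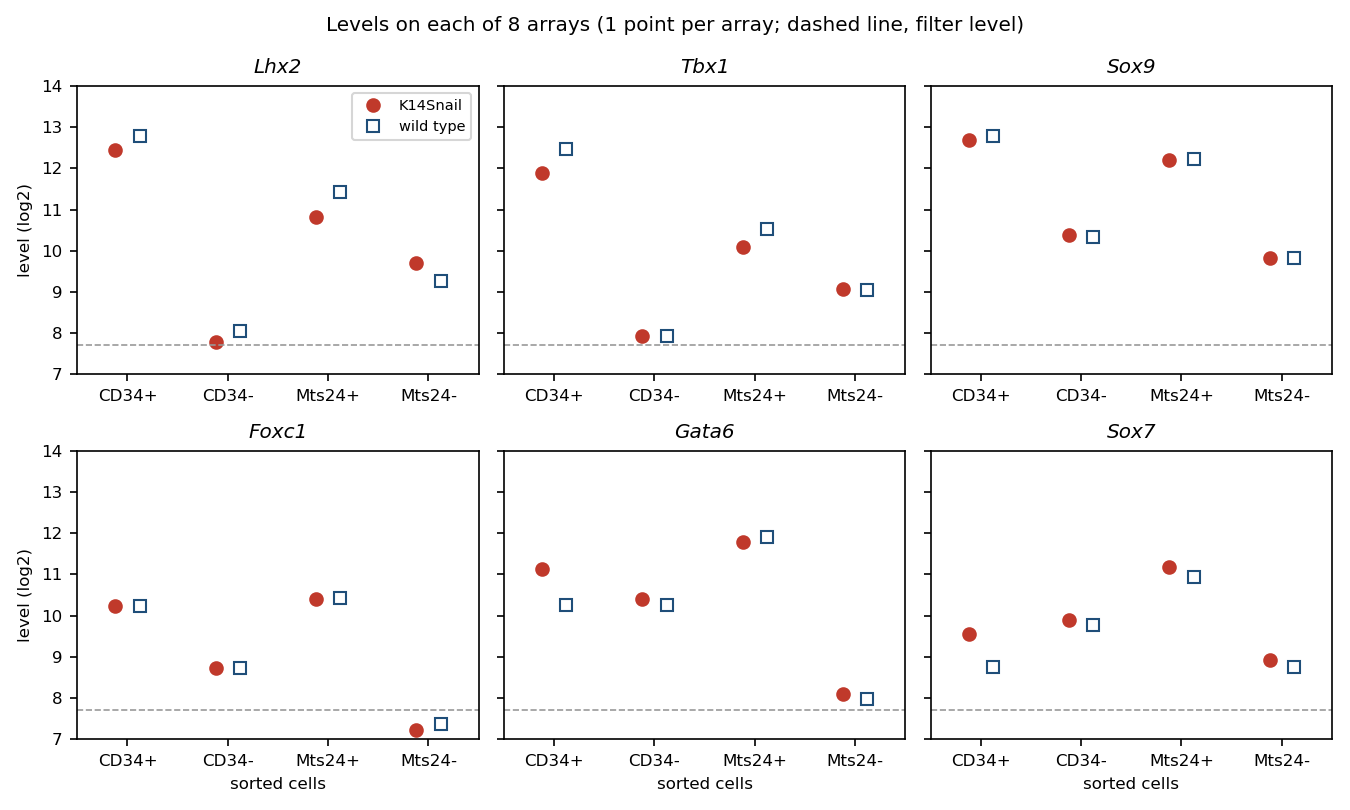
Levels (vertical, log2) of Lhx2, Tbx1, Sox9, Foxc1, Gata6 and Sox7 in each sorted fraction (horizontal), 1 point per array, K14Snail left of wild type. Sox9 and Foxc1 are high in both positive fractions, Lhx2 and Tbx1 highest in CD34+ cells, and Gata6 and Sox7 highest in Mts24+ cells, with K14Snail above wild type in CD34+ cells for the last 2.

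Markers of the 2 compartments moved with these genes. All 6 bulge genes tested were higher in CD34+ cells (median difference 3.24) and 5 of 6 in Mts24+ cells (median 1.25). Their mean level was 12.50 in K14Snail and 12.86 in wild type CD34+ cells, against 8.92 in K14Snail and 9.23 in wild type CD34- cells. Of 5 upper follicle genes, 0 passed the test for CD34 and 5 were higher in Mts24+ cells (median 2.04). The bulge list includes Cd34 (7.24 for CD34) and the upper follicle list includes Plet1 (3.22 for Mts24). The sort itself was made on these antigens, so their differences were set in advance and enter the counts and medians. The part of the 2 compartments in the members' differences was not tested.

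Gata6 and Sox7 had their highest levels in Mts24+ cells. Gata6, on chromosome 18, stood at 11.77 in K14Snail and 11.91 in wild type Mts24+ cells, against 8.10 in K14Snail and 7.98 in wild type Mts24- cells. In CD34+ cells it stood at 11.13 in K14Snail and 10.26 in wild type, against 10.40 in K14Snail and 10.26 in wild type CD34- cells. The Mts24- arrays alone were low, and wild type CD34+ and CD34- cells were level. Gata6 was 3.81 ± 0.23 higher in Mts24+ cells (14.0-fold, adjusted p = 0.00108), while for CD34 it differed by only 0.36 ± 0.23 (adjusted p = 0.316). The CD34 difference minus the Mts24 difference was -3.44 ± 0.33 (adjusted p = 0.00841).

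Sox7 is a SoxF factor best known from endothelium. It stood at 11.19 in K14Snail and 10.95 in wild type Mts24+ cells, against 8.93 in K14Snail and 8.75 in wild type Mts24- cells. In CD34+ cells it stood at 9.55 in K14Snail and 8.75 in wild type, against 9.89 in K14Snail and 9.77 in wild type CD34- cells. Sox7 was thus 2.23 ± 0.18 higher in Mts24+ cells (4.69-fold, adjusted p = 0.00182) and lower in CD34+ cells, by -0.68 ± 0.18 (adjusted p = 0.0393). The CD34 difference minus the Mts24 difference was -2.91 ± 0.25 (adjusted p = 0.00783). The CD34 call was kept in only 1 of the 8 fits that left out 1 array, and was lost with the pool as a fixed block. None of 6 endothelial genes reached the filter, and their mean level lay between 5.98 and 6.19 on all arrays. The other SoxF genes, Sox17 and Sox18, lay between 5.91 and 6.28 and between 6.80 and 7.21. Neither presence nor absence was read from levels this low, and the part of endothelial cells in the Sox7 levels was not tested.

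Foxq1 and Sox21 shared the pattern of Sox7, with lower levels in CD34+ and higher levels in Mts24+ cells. Foxq1, mutated in satin mice with altered hair medulla, stood at 9.23 in K14Snail and 8.49 in wild type CD34+ cells, against 10.17 in K14Snail and 9.83 in wild type CD34- cells. In Mts24+ cells it stood at 10.69 in K14Snail and 10.11 in wild type, against 9.60 in K14Snail and 9.58 in wild type Mts24- cells. The groups did not overlap in either comparison. Foxq1 differed by -1.14 ± 0.18 for CD34 (adjusted p = 0.00683) and 0.81 ± 0.18 for Mts24 (adjusted p = 0.0240), a gap between them of -1.95 ± 0.25 (adjusted p = 0.0158). The CD34 call was lost without the wild type CD34- array, and the Mts24 call without the wild type Mts24+ array or either K14Snail Mts24 array.

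Sox21, a SoxB factor of the hair shaft cuticle, stood at 8.72 in K14Snail and 9.38 in wild type CD34+ cells, against 10.35 in K14Snail and 10.54 in wild type CD34- cells. For Mts24+ cells the levels were 10.35 in K14Snail and 10.56 in wild type, against 9.87 in K14Snail and 10.02 in wild type Mts24- cells. Its CD34 difference was -1.39 ± 0.14 (adjusted p = 0.00186). The Mts24 difference of 0.51 ± 0.14 passed only just (adjusted p = 0.0498), and was lost without any 1 array other than the 2 of CD34+ cells, and with the pool as a fixed or an estimated random block. The gap between them was -1.90 ± 0.20 (adjusted p = 0.0108). Foxq1 and Foxc1 lie on chromosome 13 with Foxf2 as the 1 protein-coding gene between them in RefSeq's GRCm38.p6 annotation. Foxf2 stayed between 6.06 and 6.26 on all arrays, so the 2 neighbours that were higher in Mts24+ cells flank a gene under the filter level.

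Sox15, the SoxG factor, had differences of the same signs as Foxq1 and Sox21 but passed the test for CD34 alone. It stood at 7.52 in K14Snail and 8.09 in wild type CD34+ cells, against 8.89 in K14Snail and 9.19 in wild type CD34- cells. Its Mts24+ levels were 8.66 in K14Snail and 9.16 in wild type, against 8.43 in K14Snail and 8.66 in wild type Mts24- cells. The CD34 groups did not overlap, whereas the K14Snail Mts24+ array was level with the wild type Mts24- array. The difference was -1.24 ± 0.11 for CD34 (adjusted p = 0.00116) and 0.37 ± 0.11 for Mts24 (adjusted p = 0.0579). The CD34 difference minus the Mts24 difference was -1.61 ± 0.16 (adjusted p = 0.00845).

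Of the 40 members, 8 differed between the 2 marker comparisons (20%), against 4.74% of all genes tested. The signed difference was higher for CD34 in Lhx2 and Tbx1, and higher for Mts24 in Foxc1, Foxq1, Gata6, Sox7, Sox15 and Sox21. In Foxq1, Sox15 and Sox21 the fall in CD34+ cells was the larger of the 2 in size. Foxc1, Sox7 and Tbx1 passed this test in each of the 8 fits that left out 1 array, and the other 5 did not. Lhx2 was lost without the K14Snail CD34-, K14Snail Mts24+ or wild type CD34- array, Gata6 without the K14Snail Mts24- or wild type CD34- array, and Sox15 without the wild type CD34- array. Foxq1 was lost in 5 of these fits and Sox21 in 6. The count of 8 became 5 without the K14Snail CD34-, Mts24+ or Mts24- array and 3 without the wild type CD34- array.

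Members lower in both positive fractions were Gata3, Foxn1, Foxn3 and Sox6. Gata3, a factor of the inner root sheath, the epidermis and T helper cells, stood at 11.35 in K14Snail and 11.92 in wild type CD34+ cells, against 12.80 in K14Snail and 12.94 in wild type CD34- cells. The Mts24+ cells had 11.87 in K14Snail and 12.26 in wild type, against 12.91 in K14Snail and 12.95 in wild type Mts24- cells. The 4 negative arrays lay close together and above all 4 positive arrays. Gata3 differed by -1.24 ± 0.14 for CD34 (adjusted p = 0.00263) and -0.87 ± 0.14 for Mts24 (adjusted p = 0.0109). The Mts24 call was lost without the wild type Mts24+ array or either K14Snail Mts24 array.

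T cell genes moved with these 4 members. All 5 that were tested (Cd3e, Cd3g, Cd3d, Cd247 and Thy1) were lower in both positive fractions, with median differences of -1.95 for CD34 and -1.60 for Mts24. Their mean level was 8.18 in K14Snail and 7.97 in wild type CD34+ cells, against 9.56 in K14Snail and 9.90 in wild type CD34- cells. It was 7.55 in K14Snail and 7.91 in wild type Mts24+ cells, against 9.90 in K14Snail and 10.23 in wild type Mts24- cells. Gata3 was lower in K14Snail than in wild type in every fraction. The T cell mean was also lower in K14Snail CD34-, Mts24+ and Mts24- cells, but higher in K14Snail CD34+ cells. The part of T cells in these differences was not tested. Tbx21, which drives T helper differentiation, and Foxp3, the factor of regulatory T cells, lay between 6.68 and 6.92 and between 6.72 and 7.24 and were not tested.

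Sox6, a SoxD factor known from cartilage and muscle, had the largest fall of the 4 in CD34+ cells. It stood at 7.63 in K14Snail and 7.77 in wild type CD34+ cells, against 10.18 in K14Snail and 9.70 in wild type CD34- cells. Levels in Mts24+ cells were 8.07 in K14Snail and 8.67 in wild type, against 9.50 in K14Snail and 9.27 in wild type Mts24- cells. No groups overlapped, and the difference was -2.24 ± 0.25 for CD34 (4.73-fold lower, adjusted p = 0.00241) and -1.01 ± 0.25 for Mts24 (2.02-fold lower, adjusted p = 0.0354). The Mts24 call was lost without the wild type Mts24- array or either K14Snail Mts24 array, and with the pool as a fixed block.

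Foxn1, whose loss makes nude mice hairless, stood at 7.76 in K14Snail and 8.70 in wild type CD34+ cells, against 9.06 in K14Snail and 9.98 in wild type CD34- cells. In Mts24+ cells it stood at 8.50 in K14Snail and 8.46 in wild type, against 9.69 in K14Snail and 10.18 in wild type Mts24- cells. All 4 positive arrays lay below all 4 negative arrays. Foxn1 differed by -1.29 ± 0.25 for CD34 (adjusted p = 0.0142) and -1.46 ± 0.25 for Mts24 (adjusted p = 0.0121). The CD34 call was lost without the K14Snail CD34+ or wild type CD34- array, and the Mts24 call without the Mts24- array of either genotype. Suprabasal keratinocyte genes, of which 5 were tested, had medians of -1.10 for CD34, with 2 lower, and -0.69 for Mts24, with none past the test.

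Foxn3, a forkhead repressor linked to the cell cycle checkpoint, lay between 10.31 and 10.81 on the positive arrays and between 11.26 and 11.39 on the negative arrays. It differed by -0.90 ± 0.09 for CD34 (adjusted p = 0.00173) and -0.63 ± 0.09 for Mts24 (adjusted p = 0.00783), the second of which was lost without either K14Snail Mts24 array. Its other probe set lay between 9.56 and 9.99 on the positive arrays and between 10.66 and 10.71 on the negative arrays, so both sets were lower in positive cells. Foxf1 was the only other member with 2 probe sets, and neither reached the filter.

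**Figure D3:**
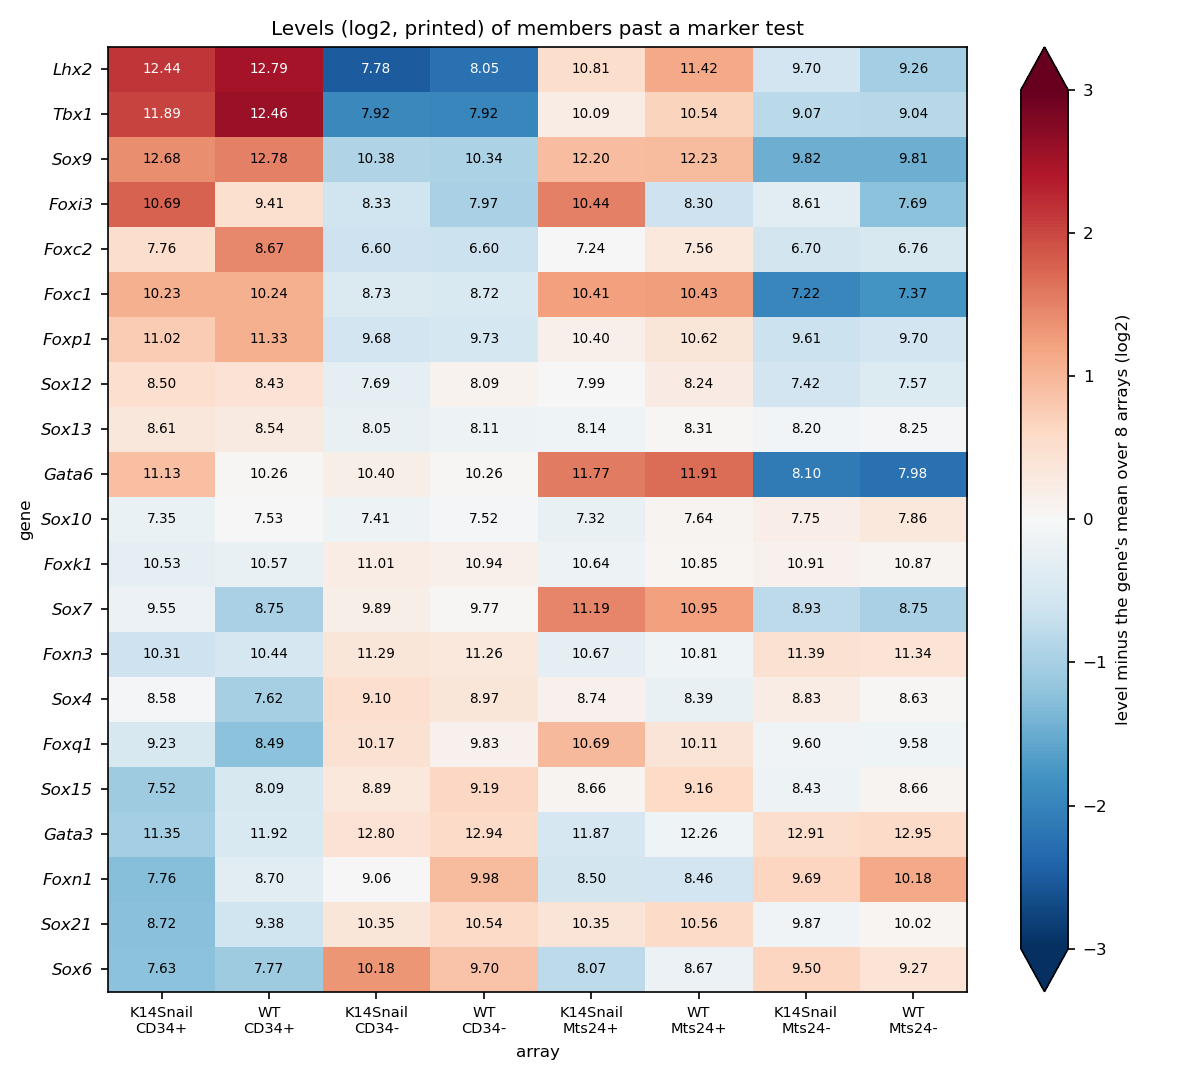
Levels (log2, printed in each cell) of the 21 members past the test in at least 1 marker comparison, on each of the 8 arrays, in order of their CD34 difference. Colour gives the level minus the gene's own mean over the arrays, and K14Snail stands left of wild type. Lhx2 and Tbx1 at the top are red in CD34+ columns and blue in CD34- columns, and Gata6 is blue in Mts24- columns alone.

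The remaining calls came from 1 marker. Foxi3, known from hair placodes and from hairless dog breeds, stood at 10.69 in K14Snail and 9.41 in wild type CD34+ cells, against 8.33 in K14Snail and 7.97 in wild type CD34- cells. For Mts24+ cells the levels were 10.44 in K14Snail and 8.30 in wild type, against 8.61 in K14Snail and 7.69 in wild type Mts24- cells. Foxi3 was 1.90 ± 0.39 higher in CD34+ cells (adjusted p = 0.0177) and its Mts24 difference of 1.22 ± 0.39 did not pass (adjusted p = 0.0700). The CD34 call was lost without any 1 CD34 array other than that of wild type CD34- cells. The K14Snail positive arrays were the highest of all, and wild type Mts24+ cells lay below K14Snail Mts24- cells.

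Foxc2, known from lymphatic vessels, stood at 7.76 in K14Snail and 8.67 in wild type CD34+ cells, against 6.60 in K14Snail and 6.60 in wild type CD34- cells. Its CD34 difference was 1.62 ± 0.22 (adjusted p = 0.00481) and its Mts24 difference 0.67 ± 0.22 (adjusted p = 0.0799). Foxc2 passed the filter only through its CD34+ arrays, so this CD34 call was partly set by the filter. Sox13, a SoxD factor known from gamma delta T cells, was 0.50 ± 0.09 higher in CD34+ cells (adjusted p = 0.0119). It stood at 8.61 in K14Snail and 8.54 in wild type CD34+ cells, against 8.05 in K14Snail and 8.11 in wild type CD34- cells, opposite in direction to the T cell genes. This call was lost without either K14Snail CD34 array or without the wild type CD34- array.

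Sox4, a SoxC factor, stood at 8.58 in K14Snail and 7.62 in wild type CD34+ cells, against 9.10 in K14Snail and 8.97 in wild type CD34- cells (-0.94 ± 0.21, adjusted p = 0.0224). The wild type CD34+ array was the low one, and without it the difference was -0.57 (adjusted p = 0.0289). The call was lost without the K14Snail CD34- array or without the wild type CD34- array. Foxk1, a forkhead factor linked to metabolism and muscle precursors, differed by -0.43 ± 0.10 for CD34 (adjusted p = 0.0252). It stood at 10.53 in K14Snail and 10.57 in wild type CD34+ cells, against 11.01 in K14Snail and 10.94 in wild type CD34- cells. Foxk1 kept its call in 2 of the 8 fits that left out 1 array. These 2, without the K14Snail or the wild type Mts24+ array, are the same fit for CD34.

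Sox10, the factor of melanocytes and glia, was the only member called for Mts24 alone besides Gata6. It stood at 7.32 in K14Snail and 7.64 in wild type Mts24+ cells, against 7.75 in K14Snail and 7.86 in wild type Mts24- cells, a difference of -0.33 ± 0.09 (adjusted p = 0.0479). Its level crossed 7.70 in Mts24- cells alone, and the call was lost in each of the 8 fits that left out 1 array and with the pool as a fixed or an estimated random block. Beside it, 3 of the 4 melanocyte genes tested (Dct, Tyrp1 and Pmel) were lower in Mts24+ cells and the other, Mitf, was higher. The melanocyte mean was taken over all 6 listed genes, with Mitf and the untested Tyr and Mlana. It was 6.98 in K14Snail and 6.94 in wild type Mts24+ cells, against 8.61 in K14Snail and 7.74 in wild type Mts24- cells. Of the 2 glial genes tested, Mbp was lower in both positive fractions. Their part in the Sox10 difference was not tested.

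The other 19 tested members passed neither marker test. They included the Foxo factors Foxo1, Foxo3 and Foxo4, which act in stress and insulin signalling, Foxe1, known from follicle orientation, Foxj2, Foxj3, Foxk2, Foxn2, Foxp4, Lhx4, Lhx6 and Tbx2. Foxe1 lay between 8.62 and 8.77 on all 8 arrays, Foxk2 between 9.63 and 9.82 and Foxo3 between 9.90 and 10.19. Among the tested members, 20 spanned less than 0.6 over the 8 arrays, and 19 spanned 1 or more (47.5%), against 26.7% of all genes tested.

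The factors named next, known from other cells, stayed under the filter level, whereas Sox7, Sox10, Sox13, Foxc2 and Gata3, given above, passed it. Sox2, a dermal papilla factor, lay between 6.03 and 6.39, Gata1, an erythroid and mast cell factor, between 6.69 and 7.09, and Gata2, of blood progenitors and mast cells, between 6.95 and 7.36. Tbx15 and Tbx18, known from dermal fibroblasts, lay between 4.64 and 5.07 and between 6.25 and 6.49, and Foxd3, of neural crest, between 6.91 and 7.27. Sox11, Foxa1, Foxj1 and Tbx3 reached at most 6.14, 6.69, 6.20 and 7.42. The 48 untested members spanned a median of 0.36 over the 8 arrays and at most 0.58. Neither presence nor absence was read from levels this low.

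Between K14Snail and wild type, 0 of the 40 members passed limma's adjusted test over the 4 fractions, against 0.382% of all genes. At an unadjusted p under 0.05, 10 members passed (25%), against 20.3% of all genes. Of the members, 16 had the same sign in 4 of 4 fractions (40%), against 31.6% of all genes. The median difference was -0.09 over the members and 0.03 over all genes. The 4 differences come from pools that may share mice, since the labels do not say whether positive and negative fractions came from the same animals.

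Foxi3 had the largest genotype difference among the members. Its levels, given above, were higher in K14Snail than in wild type by 1.28 in CD34+ cells, 0.36 in CD34- cells, 2.14 in Mts24+ cells and 0.92 in Mts24- cells. The mean over fractions was 1.17 ± 0.28 (2.26-fold, adjusted p = 0.128), higher in 4 of 4 fractions. The difference was larger in positive than in negative fractions by 1.07 ± 0.34, which did not pass (adjusted p = 0.387). The 6 listed genes of the inner root sheath and hair shaft, of which 4 were tested, averaged 7.99 in K14Snail and 7.22 in wild type CD34+ cells. In Mts24+ cells they averaged 7.63 in K14Snail and 7.09 in wild type. In CD34- cells they averaged 7.13 in K14Snail and 6.87 in wild type, and in Mts24- cells 7.06 in K14Snail and 7.04 in wild type. Their part in the Foxi3 difference was not tested.

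Sox15 was lower in K14Snail in 4 of 4 fractions, by values between -0.57 and -0.23, with a mean of -0.40 ± 0.08 (adjusted p = 0.101). Sox21 was also lower in 4 of 4 fractions (-0.30 ± 0.10, adjusted p = 0.198), as were Gata3 (-0.28 ± 0.10, adjusted p = 0.211) and Foxj2 (-0.23 ± 0.07, adjusted p = 0.191). Foxn1 was lower by -0.94 in CD34+ cells, -0.92 in CD34- cells and -0.49 in Mts24- cells but higher by 0.04 in Mts24+ cells (mean -0.58 ± 0.17, adjusted p = 0.180). None of these differences is a call. Sox15 and Foxn1 hold an E-box in the stretches printed above, which were placed to hold one. Of the longer windows of all genes, 20.2% hold one. Sox21, Gata3 and Foxj2 were not among the members with an E-box, though windows were found for only 60 of the 88 members. Sox6 and Foxp1, also printed with an E-box, had genotype differences of -0.01 and -0.16, and neither is a call.

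Foxq1, Sox4 and Sox7 were higher in K14Snail in 4 of 4 fractions. Their mean differences were 0.42 ± 0.12, 0.41 ± 0.15 and 0.34 ± 0.13 (adjusted p = 0.176, 0.211 and 0.222). For each the largest of the 4 was that of CD34+ cells, at 0.74, 0.96 and 0.80. Gata6 was likewise higher by 0.86 in K14Snail CD34+ cells, with differences between -0.14 and 0.14 in the other fractions. Upper follicle genes averaged 12.27 in K14Snail CD34+ cells and 11.69 in wild type CD34+ cells, and suprabasal genes averaged 10.85 in K14Snail and 12.08 in wild type CD34+ cells. In the same CD34+ pair, sebaceous gland genes averaged 7.75 in K14Snail and 10.49 in wild type. They were also lower in K14Snail CD34- cells (7.88 against 10.13), Mts24+ cells (8.88 against 9.15) and Mts24- cells (8.65 against 9.52). The 6 listed myeloid and Langerhans genes, of which 4 were tested, averaged 8.35 in K14Snail and 7.03 in wild type CD34+ cells. Their mean was 8.30 in K14Snail and 6.97 in wild type Mts24+ cells. In CD34- cells it was 8.02 in K14Snail and 8.25 in wild type, and in Mts24- cells 8.36 and 8.34. The sebaceous and myeloid shifts were thus not particular to the CD34+ pair. The part of a different cell mix in the CD34+ pair of arrays was not tested. Without the wild type CD34+ array, Gata6 and Foxm1 passed the CD34 test.

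Single fractions hold 1 array per genotype and no replicate check, so differences of 1 or more were counted without a test. In CD34+ cells 2 of 40 members passed that size (5%), Foxi3 and Foxm1, against 4.94% of all genes. In Mts24+ cells 1 did (2.5%), Foxi3, against 1.91% of all genes. In CD34- and Mts24- cells 0 did, against 0.858% and 0.737% of all genes.

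Foxm1, which drives genes of the G2 and M phases, stood at 8.78 in K14Snail and 7.19 in wild type CD34+ cells, against 7.72 in K14Snail and 7.91 in wild type CD34- cells. Its Mts24+ levels were 8.38 in K14Snail and 8.12 in wild type, against 7.19 in K14Snail and 7.07 in wild type Mts24- cells. It was higher by 1.58 in K14Snail CD34+ cells, and no comparison called it, with adjusted p between 0.0970 and 0.802 over the 5 comparisons. The 7 cell cycle genes tested averaged 9.91 in K14Snail and 7.80 in wild type CD34+ cells, against 8.92 in K14Snail and 8.84 in wild type CD34- cells. In Mts24+ cells they averaged 9.68 in K14Snail and 9.21 in wild type, against 8.33 in K14Snail and 7.72 in wild type Mts24- cells. Foxm1 and these genes were both high in the K14Snail positive fractions and low in wild type CD34+ and in both Mts24- fractions. The part of cell division in the Foxm1 levels was not tested.

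**Figure D4:**
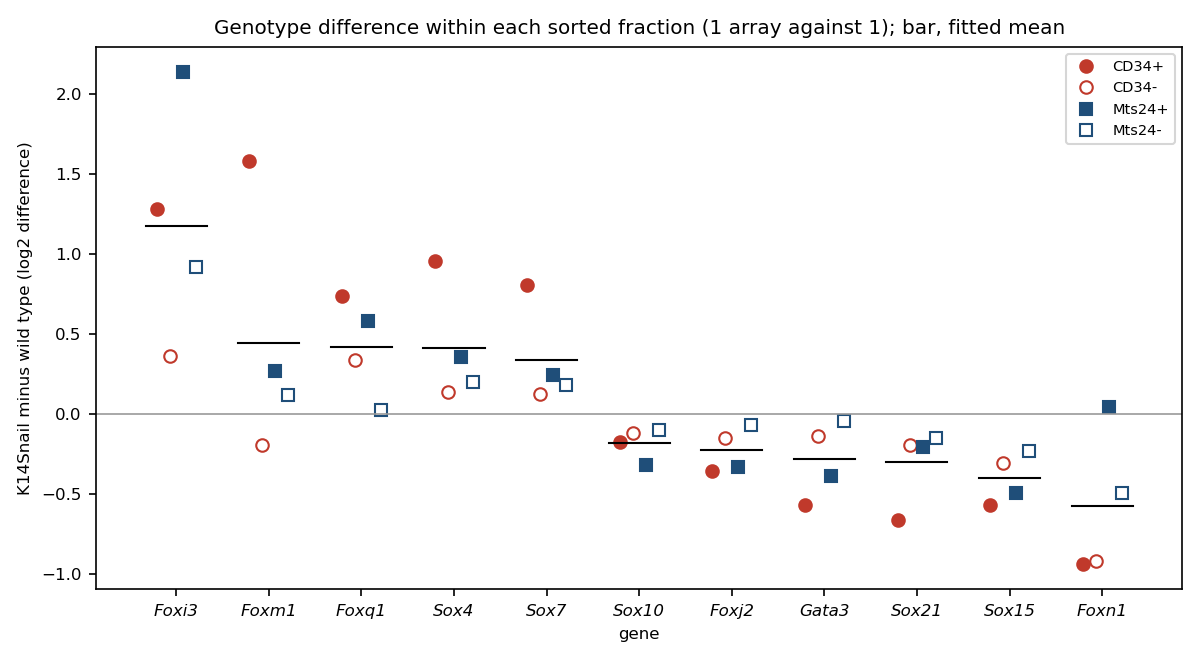
K14Snail minus wild type (vertical, log2) within each sorted fraction for the 10 members with an unadjusted p under 0.05 and for Foxm1, in order of the fitted mean, which the bars mark. Each point is 1 array against 1, and none of these members passed the adjusted test. Foxi3 has the largest mean, and the CD34+ points of Foxm1, Sox4 and Sox7 lie apart from their other points.

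No member's difference between positive and negative fractions passed limma's test of a change with genotype (0 of 40), against 0% of all genes. At an unadjusted p under 0.05, 6 members passed (15%), against 9.89% of all genes. The positive minus negative difference in K14Snail less that in wild type was -0.53 for Tbx1 (adjusted p = 0.264), -0.73 for Sox6 (adjusted p = 0.317) and -0.58 for Foxc2 (adjusted p = 0.483). For Tbx1 and Foxc2, which stood higher in positive cells, the difference was smaller in K14Snail, and for Sox6, which stood lower there, it was wider in K14Snail, but none of the 3 passed. With the Mts24+ array of K14Snail or of wild type left out, 4 members passed (Foxc2, Foxm1, Gata6 and Sox4), and with a CD34+ array of either genotype left out 1 did (Foxi3), in fits with 1 residual degree of freedom. With 1 array per group these tests have 2 residual degrees of freedom, and a miss does not show that the genotypes were alike.

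**Figure D5:**
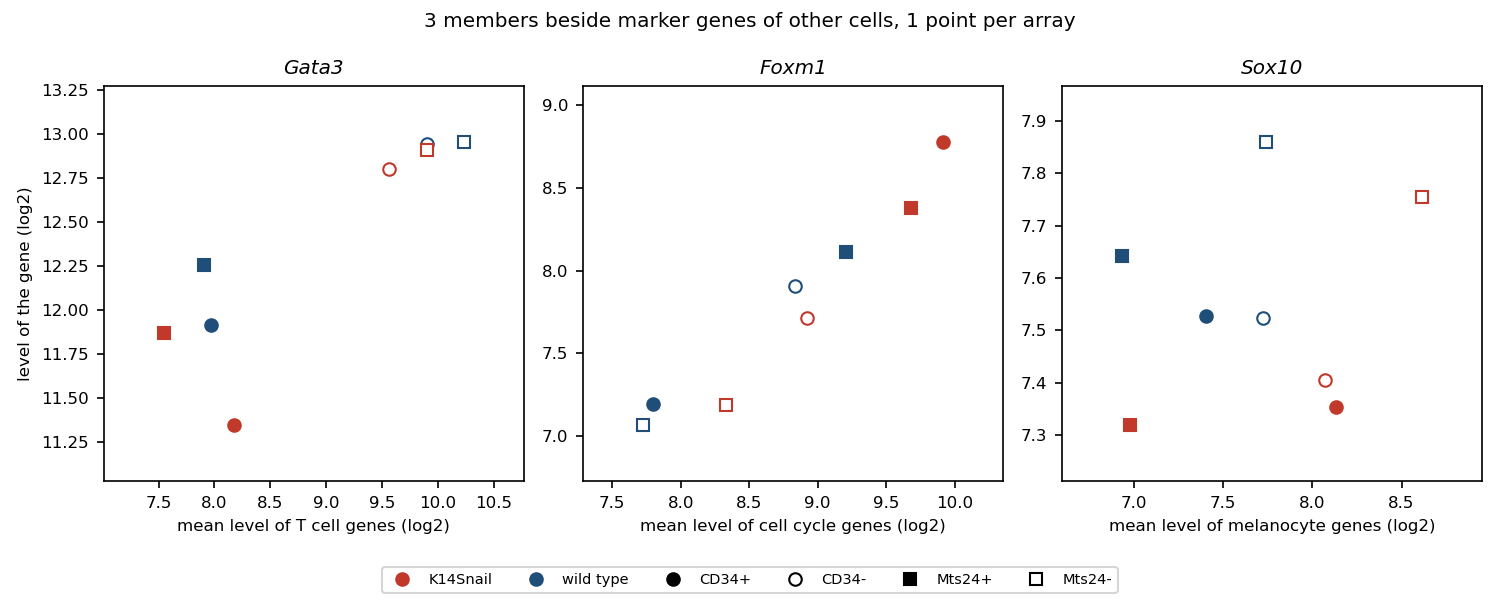
Levels (vertical, log2) of Gata3, Foxm1 and Sox10 against the mean level (horizontal, log2) of T cell, cell cycle and melanocyte genes on the same array, 1 point per array. Gata3 and the T cell genes are both high on the 4 negative arrays, Foxm1 is highest where the cell cycle genes are, and Sox10 spans only 0.54.

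Other regulators of follicle and epidermis outside the 5 families also differed between fractions. Of 20 listed, 19 were tested. For CD34, 9 were higher and 4 lower, against 13.4% and 13.4% of all genes, and for Mts24, 8 were higher and 5 lower, against 12.8% and 13.5%. The list was chosen with earlier results of these data known, so these counts are a description. The gap between the markers was higher for 3 and lower for 1, and 0 passed for genotype or its interaction. Nfatc1, a bulge quiescence factor, was 1.99 higher in CD34+ and 1.43 higher in Mts24+ cells (adjusted p = 0.000240 and 0.00133), and Tcf7l1 2.15 and 1.42 higher (adjusted p = 0.000171 and 0.00103). Klf5, an epidermal factor, fell by 1.32 in CD34+ cells and by 0.44 in Mts24+ cells (adjusted p = 0.000501 and 0.0183).

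In each family the gene outside the families whose levels followed those of the member with the widest span most closely was named by Pearson correlation over the 8 arrays, which share fraction and genotype. Among 10680 genes, Fzd7 followed Sox9 (r = 0.994), Vsnl1 followed Foxc1 (r = 0.996), Dab2 followed Tbx1 (r = 0.992), Angptl7 followed Lhx2 (r = 0.990) and Sema5a followed Gata6 (r = 0.982). An r of 0.95 or more was found for 161 genes with Sox9, 98 with Tbx1, 82 with Foxc1, 36 with Gata6 and 33 with Lhx2.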

How the data were processed

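Transcripts were measured on 8 Affymetrix arrays, 1 per group. Total RNA was amplified and labelled with biotin, as the labels' protocols state. Values are on the log2 scale, 1 per probe set, as deposited. RMA, which per the submitters' processing notes the authors used, corrects for background, normalizes and summarizes the probes of a set. No RMA version or genome build is given in the sources used here. Values lay between 3.04 and 14.49, array medians between 7.32 and 7.42, and all arrays differed from one another.

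Of 28874 probe sets, 21789 had 1 gene symbol in GEO's platform annotation, 1621 had several and 5464 had none. The first kind gave 19938 genes, each by its probe set of highest mean level. Genes reaching 7.70, the median of gene levels, on at least 2 arrays were tested, 10720 in all. limma 3.58.1 (R 4.3.3, statmod 1.5.0) fitted the 4 fractions and genotype in 1 model, with 3 residual and 2.75 prior degrees of freedom, and genotype by positive fraction in a further one, with 2 and 3.18. P-values were adjusted by Benjamini-Hochberg over all genes tested, with a threshold of 0.05. Tables and plots used Python 3.11.15, pandas 2.3.3, numpy 2.4.6 and matplotlib 3.10.9. The pool of mice was not a block in these fits, because its estimated correlation was below 0, at -0.18. Why it was below 0 was not tested, and fits with a pool block were run as alternatives. The number of arrays limits the precision. On data simulated for the CD34 comparison over 10720 genes, 66% of log2 changes of 1 and 93% of changes of 2 were recovered, with 3 false calls. The simulation changed far fewer genes than the real comparison called (2868). Its noise was normal and independent between arrays, with no genotype effect and no shared pool. These rates therefore describe that setting and do not carry over directly to the real comparison.

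The members, the lists of marker genes and of other regulators, and the tests were chosen with earlier results of these data known. Named members were those past the adjusted threshold in any comparison, the 10 of highest mean level, those with a K14Snail difference of 1 or more in a fraction, and a list of factors known from skin cells. Alternatives were pool blocks, filters, quantile normalization, the mean of a gene's probe sets, an intensity trend in the prior, leaving out each array, and genotype within 1 marker. For differences within single fractions, the alternatives were chosen after seeing the data.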

Additional observations from a re-analysis of the deposited data

Results flagged for a closer look

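For 8 members the difference between positive and negative cells differed between CD34 and Mts24 by limma's test of the difference itself. The CD34 difference was larger by 3.06 for Lhx2 and by 2.996 for Tbx1 (log2). The CD34 difference minus the Mts24 difference was -1.62 for Foxc1, -1.95 for Foxq1, -3.44 for Gata6, -1.61 for Sox15, -1.90 for Sox21 and -2.91 for Sox7. Foxq1, Sox7 and Sox21 were lower in CD34+ cells and higher in Mts24+ cells, whereas Foxc1 was higher in both. Both genotypes showed the same sign of the gap for each of the 8.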

How the results depend on the processing

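No call among the members changed direction under any alternative that was run. Counts of members called stayed within 1.5 times under every pool block, filter, normalization, probe set rule and prior, and moved only when 1 array was left out, where the lone array of that group is assumed to vary like the others. With 1 array left out, the Mts24 count ran from 7 to 17 (15 with all arrays), the count for the gap between markers from 3 to 11 (8), and the interaction count from 0 to 4 (0). The CD34 calls lost in at least 1 such fit were Foxi3, Foxk1, Foxn1, Foxq1, Sox12, Sox13, Sox4 and Sox7. The Mts24 calls lost were Foxn1, Foxn3, Foxq1, Gata3, Lhx2, Sox10, Sox12, Sox21, Sox6 and Tbx1. With a fixed pool block, Sox7 lost its CD34 call and Sox10, Sox21 and Sox6 their Mts24 calls. Sox10 and Sox21 also lost theirs with the estimated pool block and without the filter, and Sox10 also with the intensity trend. The filter at 4 arrays left Sox10 and Foxc2 untested, which ended the Mts24 call of Sox10 and the CD34 call of Foxc2. No member passed the genotype test under any alternative, with adjusted p for Sox15 down to 0.0525. Over all genes the genotype count of 41 became 220 with the estimated pool block, 6 with a pool correlation preset at 0.2, 63 without the filter, 0 in CD34 arrays and 1 in Mts24 arrays alone, and 2 to 23 without 1 array. Without 1 array the counts over all genes were 1332 to 2531 for CD34 (2868 with all arrays), 783 to 3198 for Mts24 (2816), 74 to 929 for the gap (508, and 232 with a fixed pool block) and 0 to 728 for the interaction (0). The interaction count was 3 with an intensity trend, 1 without the filter and 4 with the preset correlation. The number of arrays limits every test. Low signals compress differences, which bears on Foxc1 in Mts24-, Foxc2 and Sox10.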
